A study of Zea mays with 12 samples.

Results

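The genes described are 5 small-protein genes of the basal and embryo-facing edges of the maize endosperm: bap1-b, bap-3a, meg6, ESR1c1 and esr1. These names were chosen with earlier results of these data known. Every probe set whose annotated symbol or RefSeq synonym was one of the names was then taken, whatever its signal. This gave 11 probe sets of the 17621 non-control probe sets on the array, and 9 of the 11 were bright enough to be tested among 10708. The samples were endosperm of untreated maize kernels 13 days after pollination, of 4 genotypes: the inbreds B73 and Mo17 and their reciprocal hybrids B73xMo17 and Mo17xB73. There were 3 arrays for each genotype and 12 in total, each made from kernels pooled over 6 ears, so precision rests on 3 arrays a group. Replicates 1, 2 and 3 come from 3 crossing dates, each shared by the 4 genotypes. The parent named first was read as the mother, by maize custom rather than from any label, and the series title concerns non-additive and imprinted expression in hybrids.

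The basal endosperm transfer layer is a sheet of cells with wall ingrowths that faces the maternal tissue and takes up sugars and amino acids for the kernel. The embryo surrounding region is a small group of endosperm cells that lines the young embryo. Both express families of short secreted proteins. Endosperm receives more genome copies from the mother than from the father, so reciprocal hybrids hold the same alleles in opposite dosage.

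The bap genes encode basal layer antifungal proteins, small cysteine-rich peptides secreted towards the maternal side of the kernel. bap1-b is the RefSeq gene LOC542669, measured by 2 probe sets whose array names end in _s_at and _x_at, and bap-3a is LOC542752, measured by 1. In the RefSeq annotation bap1-b lay next to bap-1a with no annotated gene between them, and bap-3a and bap-3b had 2 genes between them. The meg genes encode cysteine-rich peptides of the transfer layer, and the family is named for maternal expression of its founding member. An _a_at and an _x_at probe set belong to LOC100125634, which RefSeq lists under both meg2 and MEG6, and a further probe set carries the annotated symbol meg6 with a gene identifier that was not matched to a current RefSeq gene. They are called the meg2/MEG6 probe sets and the meg6-symbol probe set here. The ESR genes encode small secreted proteins of the CLE peptide family, expressed in the embryo surrounding region. ESR1c1 was measured by 4 probe sets, and esr1 is LOC542448, measured by 1 probe set, a RefSeq entry that also carries the synonyms ESR1c1 and esr2. A neighbouring RefSeq gene, LOC100037781, had 0 probe sets in the annotation. These families hold near-identical copies, and the suffixes _s, _x and _a mark probe sets that can bind more than 1 transcript. Which family member gave the signal is therefore uncertain, and whether the inbreds differ in sequence where the probes bind was not tested. Probe sets of 1 gene share their target and are not independent measurements.

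Levels below are MAS5 signal scaled so that the arrays had equal medians over the brighter probe sets, and values under a floor of 14.8 were raised to it for tests. Differences are on the log2 scale with their standard error, from limma with 3 arrays per genotype, and a probe set was called when its Benjamini-Hochberg adjusted p over the 10708 tested was under 0.05. Before scaling, B73xMo17 replicates 1 and 2 were dimmer than the others, with scale factors of 1.24 and 1.29 against 0.886 to 1.06 elsewhere. Of the 9 tested probe sets, bap-3a and both ESR1c1 probe sets exceeded the brightness filter of 71.8 only through Mo17 and Mo17xB73. Counts and medians over the 9 tested probe sets are therefore descriptions of those 9. The 2 probe sets left out, named A1_a_at and A1_at, are ESR1c1 probe sets whose array names mark them as antisense to the tested S1_a_at and S1_at pair, and they read between 1.5 and 30.0 on every array.

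bap1-b was higher in Mo17 and Mo17xB73 than in B73 and B73xMo17. In B73 the scaled signal of its _s_at probe set was 2154, 270.2 and 757.5 on crossing dates 1, 2 and 3. In Mo17 it was 5561, 1685 and 4925 on the same dates. At each date Mo17 read above B73, but the brightest B73 array passed the dimmest Mo17 array, so the groups overlapped. The difference, B73 minus Mo17, was -2.24 ± 0.76 (adjusted p 0.0248), which is 4.71-fold higher in Mo17. In the hybrids the probe set read 1160, 252.0 and 1151 in B73xMo17 and 5026, 1870 and 4093 in Mo17xB73. All 3 arrays of Mo17xB73 lay above all 3 of B73xMo17, by 4.85-fold on average (-2.28 ± 0.76, B73xMo17 minus Mo17xB73, adjusted p 0.0377). The second probe set, _x_at, read 684.0, 119.5 and 309.6 in B73 and 3749, 918.8 and 3390 in Mo17. It read 474.5, 101.6 and 601.4 in B73xMo17 and 3246, 943.6 and 2585 in Mo17xB73. Neither pair of groups overlapped, and the differences were -2.95 ± 0.79 (adjusted p 0.00694) between the inbreds and -2.70 ± 0.79 (adjusted p 0.0212) between the hybrids.

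bap-3a was at or near the floor in B73 and B73xMo17 and above it on every array of Mo17 and Mo17xB73. Its probe set read 4.97, 6.70 and 1.43 on the B73 arrays, all under the floor, and 378.4, 62.3 and 340.3 on the Mo17 arrays. Mo17 was at least 13.5-fold higher than the floor at which all 3 B73 arrays stood (-3.75 ± 0.66, adjusted p 0.000377). B73xMo17 read 23.2, 1.44 and 21.2, with replicate 2 under the floor, and Mo17xB73 read 251.8, 49.0 and 163.3. With the floor standing in for that array, Mo17xB73 was 6.52-fold higher than B73xMo17 (-2.70 ± 0.66, adjusted p 0.00856), with no overlap. Its neighbour bap-3b, which belongs to the same family, had geometric means of 193.8 in B73 and 161.5 in Mo17 and was not called between the inbreds.

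The meg2/MEG6 probe sets were higher in Mo17 than B73 and in Mo17xB73 than B73xMo17 on each crossing date, with differences that did not pass in the fit of genotype means and did with date in the model. The _a_at probe set read 6918, 1266 and 3942 in B73 and 10279, 5108 and 9703 in Mo17. In the hybrids it read 4827, 1088 and 5023 in B73xMo17 and 11026, 6503 and 10225 in Mo17xB73. Mo17 exceeded B73 at each date although the inbred groups overlapped, and all Mo17xB73 arrays exceeded all B73xMo17 arrays. With genotype means alone neither difference passed (-1.29 ± 0.63, adjusted p 0.0985, between the inbreds and -1.60 ± 0.63, adjusted p 0.0695, between the hybrids). With crossing date as a block both did (standard error 0.28, adjusted p 0.00183 and 0.000947). The _x_at probe set read 4863, 678.9 and 2285 in B73 and 8155, 2797 and 7223 in Mo17, and in the hybrids 2954, 606.2 and 3140 in B73xMo17 and 8952, 3630 and 7044 in Mo17xB73. It showed the same overlap of the inbreds and none of the hybrids, with inbred differences of -1.48 ± 0.74 (adjusted p 0.107, and 0.000368 with the block) and hybrid differences of -1.78 ± 0.74 (adjusted p 0.0838, and 0.000270 with the block).

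The meg6-symbol probe set had a different pattern from the other 8. It read 2651, 2685 and 2552 in B73, 2097, 2249 and 1939 in Mo17, 2250, 2348 and 2124 in B73xMo17, and 2247, 2421 and 2201 in Mo17xB73. These 12 values span a narrow range, and B73 stood above Mo17 with no overlap. The inbred difference was 0.33 ± 0.07 (adjusted p 0.00204), 1.26-fold higher in B73, and on the deposited scale without scaling it was 0.18 and not called (adjusted p 0.287). The hybrids differed by -0.03 ± 0.07 (adjusted p 0.774).

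**Figure D1:**
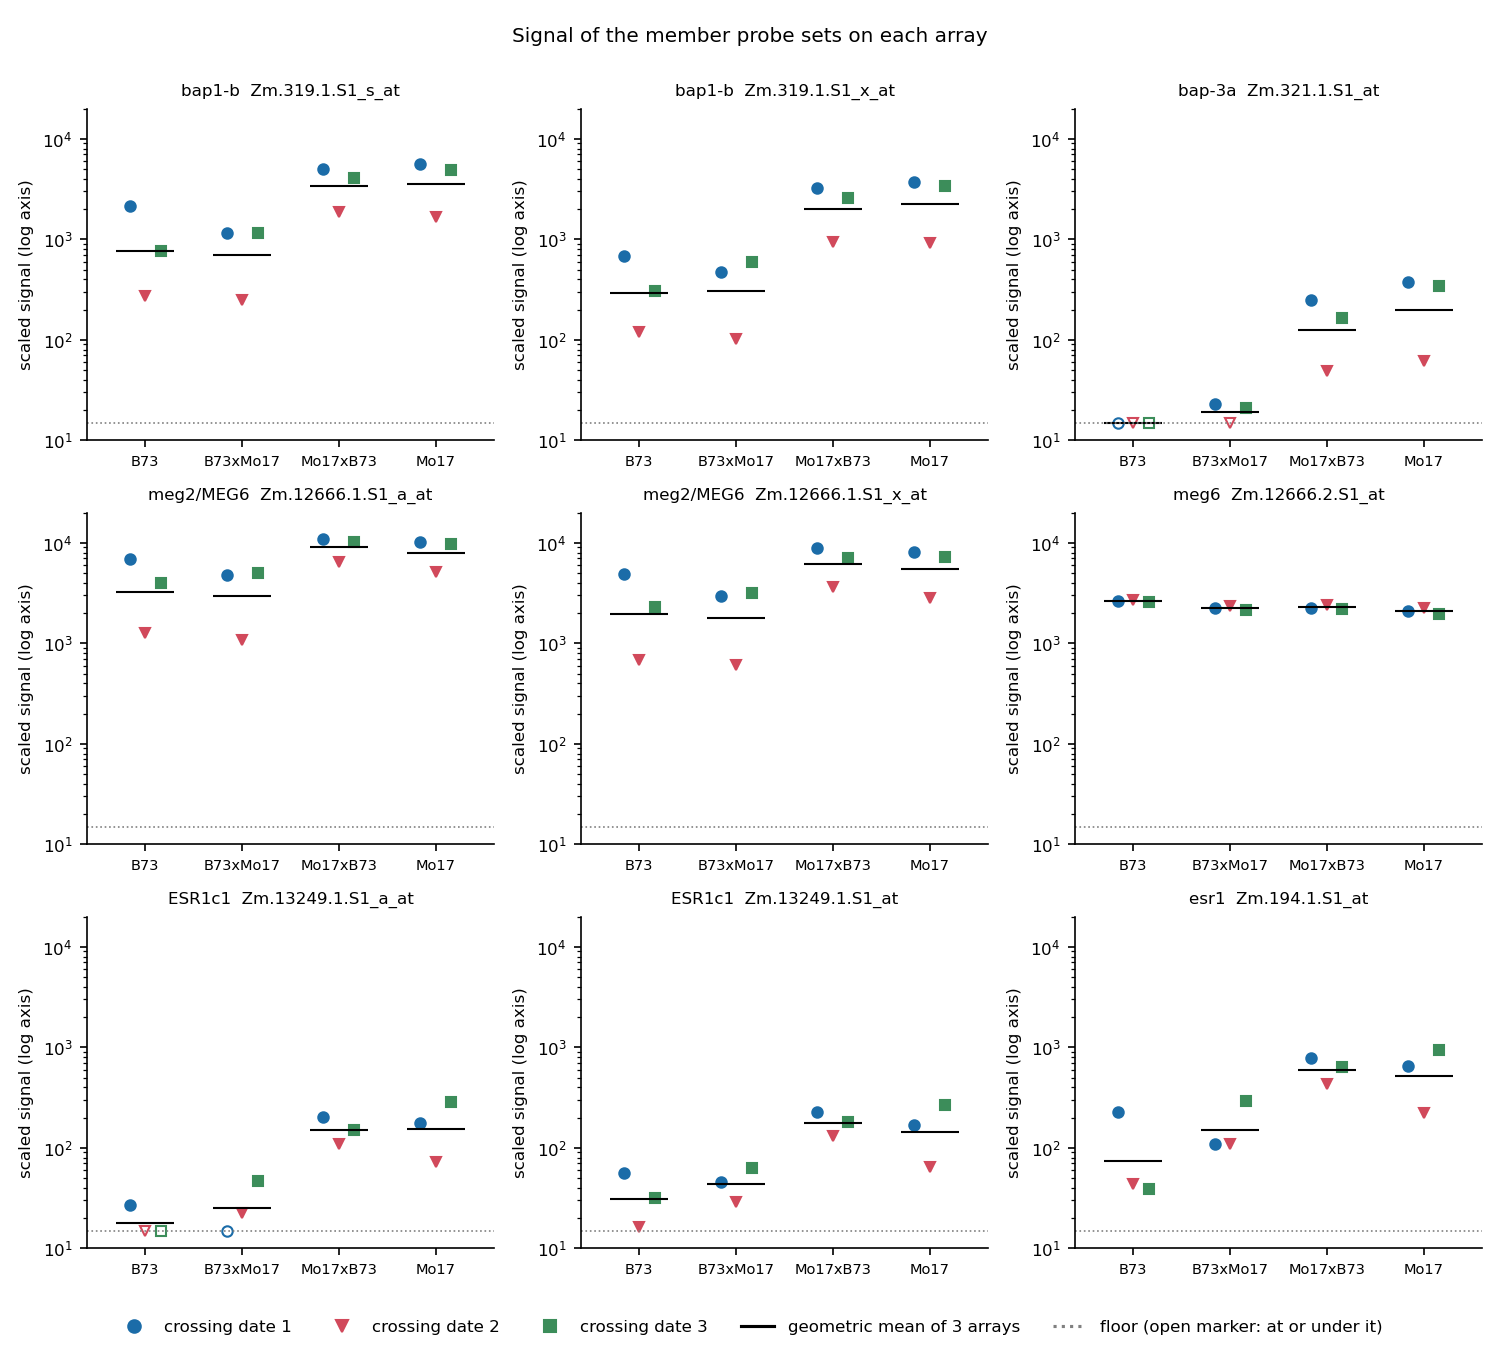
Scaled MAS5 signal (log axis) of the 9 tested member probe sets by genotype, with 1 marker per array, shape and colour giving the crossing date, and a bar at the geometric mean of 3 arrays. The dotted line is the floor of 14.8 and open markers stand at it; apart from the meg6-symbol probe set, the bars of Mo17 and Mo17xB73 sit above those of B73 and B73xMo17, while single arrays of bap1-b (_s_at), meg2/MEG6 and esr1 overlap between the inbreds.

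The ESR genes were dim in B73 and B73xMo17 and readily measured in Mo17 and Mo17xB73. esr1 read 229.3, 44.2 and 38.9 in B73 and 657.5, 219.8 and 947.9 in Mo17. The B73 array of date 1 was slightly above the Mo17 array of date 2, and the difference was -2.81 ± 0.67 (adjusted p 0.00346), 7.03-fold higher in Mo17. In the hybrids esr1 read 108.5, 108.5 and 291.5 in B73xMo17 and 777.9, 427.4 and 634.9 in Mo17xB73. The hybrid groups did not overlap, and Mo17xB73 was 3.95-fold higher (-1.98 ± 0.67, adjusted p 0.0403). ESR1c1, by S1_at, read 56.9, 16.4 and 31.7 in B73 against 169.0, 64.0 and 267.0 in Mo17. It read 46.0, 28.8 and 63.2 in B73xMo17 against 225.8, 130.3 and 182.0 in Mo17xB73. Neither pair of groups overlapped, with differences of -2.20 ± 0.53 (adjusted p 0.00354) and -2.0 ± 0.53 (adjusted p 0.0130). The companion S1_a_at read 26.9, 1.12 and 5.08 in B73 against 175.6, 72.1 and 288.5 in Mo17, and 3.97, 22.4 and 46.8 in B73xMo17 against 201.7, 109.9 and 151.2 in Mo17xB73. The groups did not overlap. With 2 B73 arrays and 1 B73xMo17 array raised to the floor, Mo17 was 8.52-fold above B73 (-3.09 ± 0.51, adjusted p 0.000235) and Mo17xB73 5.99-fold above B73xMo17 (-2.58 ± 0.51, adjusted p 0.00276).

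Counted over the 9 tested probe sets, 7 were called between the inbreds, 6 of them lower in B73 and the meg6-symbol probe set higher. Across the array 53.6% of tested probe sets were called in that comparison, 26.1% lower and 27.5% higher in B73. The median difference of the 9 was -2.24, beside 0.01 over all tested probe sets. The 3 arrays of one inbred lay entirely to one side of the other for 5 of the 9, and for 61.0% of all tested. Between the reciprocal hybrids 6 of the 9 were called, all lower in B73xMo17, with 31.2% of all tested probe sets called and 15.9% called lower. The median of the 9 was -2.0, beside 0.01 over all tested, and the arrays did not overlap for 8 of the 9 and for 44.5% of all tested. With crossing date as a block, 9 were called between the inbreds (63.4% of all tested) and 8 between the hybrids (44.5% of all tested).

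In the fit of 4 genotype means, without crossing date as a block, the calls between the reciprocal hybrids leaned on single arrays. Leaving out 1 array in that fit also leaves the genotypes with unequal crossing dates. Date by date, bap1-b (_s_at) was 4.33-fold, 7.42-fold and 3.56-fold higher in Mo17xB73 than in B73xMo17. Without both dim arrays, which leaves B73xMo17 with replicate 3 alone, 0 of the 9 were called by limma and the differences of the 8 other than the meg6-symbol probe set ran from -2.58 to -0.84, where 15.1% of all tested were called. The lone array was then assumed to vary like the other groups. Without B73xMo17 replicate 2 the count was 2 (24.7% of all tested), without Mo17xB73 replicate 1 or replicate 3 it was 3 (29.4% and 24.6%), and without B73 replicate 2 it was 8 (30.5%). Without the 4 arrays of crossing date 2 it was 7 (13.9%), with esr1 not called (-1.98, adjusted p 0.110). Between the inbreds the count stayed between 6 and 9 when any 1 array was left out, with 48.0% to 54.5% of all tested called. The _s_at probe set of bap1-b lost its call there without B73 replicate 2 or 3 or Mo17 replicate 1 or 3.

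**Figure D2:**
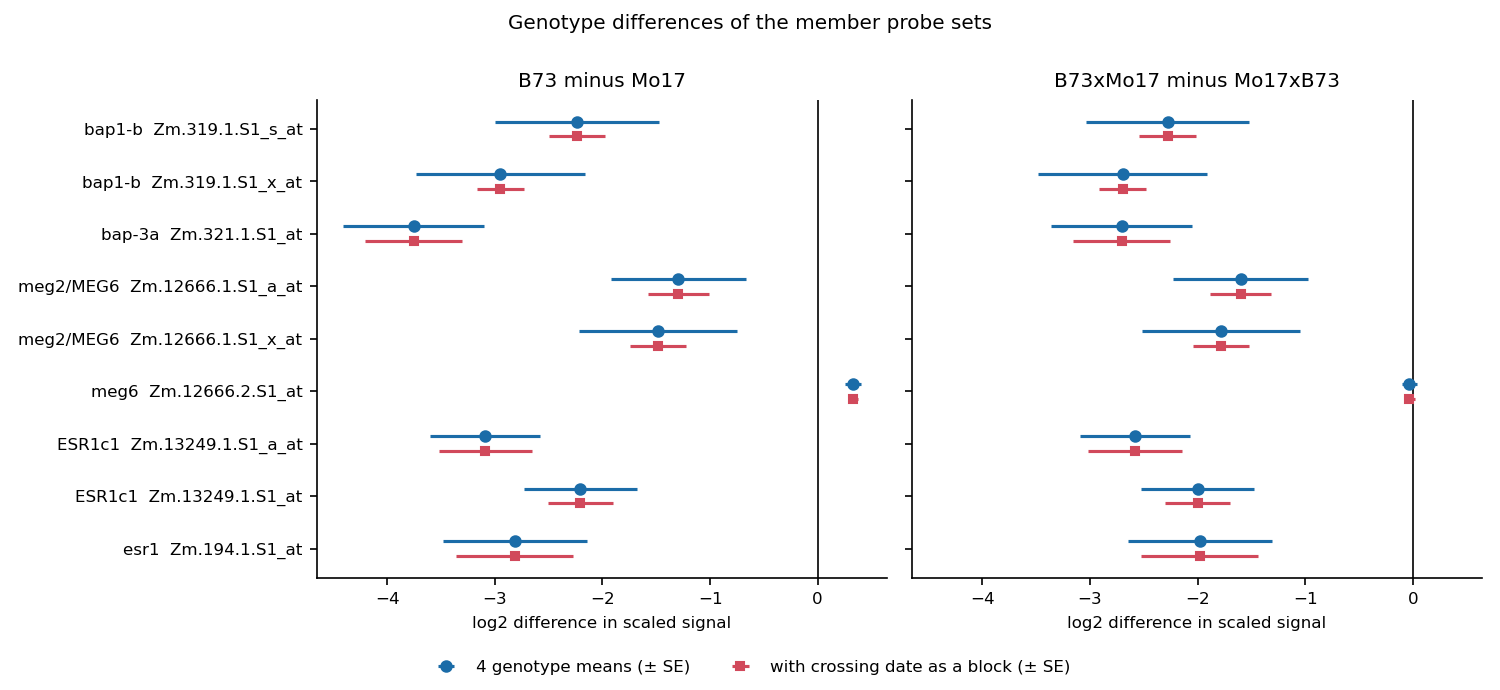
Log2 differences in scaled signal for the 9 tested member probe sets, B73 minus Mo17 on the left and B73xMo17 minus Mo17xB73 on the right, with bars of 1 standard error from the fit of 4 genotype means (circles) and from the blocked fit, which adds crossing date (squares). Apart from the meg6-symbol probe set (0.33 and -0.03), every estimate lies to the left of 0, between -3.75 and -1.29, and most bars are shorter with the block.

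Each hybrid was next set against its parents. Against their mothers, 0 of the 9 probe sets were called for either hybrid by limma, with 1 and 0 of them at an unadjusted p under 0.05. Across the array 9.91% of probe sets were called for B73xMo17 against B73 and 11.1% for Mo17xB73 against Mo17. For bap1-b the difference was -0.13 ± 0.76 (_s_at) between B73xMo17 and B73 and -0.09 ± 0.76 between Mo17xB73 and Mo17. For esr1 these values were 1.04 ± 0.67 and 0.21 ± 0.67. Standard errors of this size leave room for sizeable differences, so missing the threshold does not show that hybrid and mother were alike. With crossing date as a block the meg6-symbol probe set was lower in B73xMo17 than in B73 (-0.23 ± 0.05, adjusted p 0.00666), where 20.4% of all tested probe sets were called. In that fit 0 of the 9 were called for Mo17xB73 against Mo17, where 18.9% of all tested were.

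Against their fathers the hybrids stood apart. B73xMo17 was lower than Mo17 for 6 of the 9 probe sets, with 49.5% of all tested called and 24.3% called lower, and by 10.3-fold for bap-3a with 1 hybrid array raised to the floor (-3.37 ± 0.66, adjusted p 0.00115). Mo17xB73 was higher than B73 for 6 of the 9 and lower for the meg6-symbol probe set (-0.20 ± 0.07, adjusted p 0.0437), with 39.6% of all tested called, 19.5% higher and 20.1% lower. esr1 was 8.12-fold higher in Mo17xB73 than in B73 (3.02 ± 0.67, adjusted p 0.00340). These comparisons share their arrays with those above. In order of level, bap1-b, bap-3a, ESR1c1, esr1 and the meg2/MEG6 probe sets thus had Mo17 and Mo17xB73 at the top and B73 and B73xMo17 at the bottom, with no call inside either pair. The count for B73xMo17 against Mo17 was 3 without B73xMo17 replicate 2, Mo17 replicate 1 or Mo17 replicate 3 (42.9%, 44.4% and 43.8% of all tested), 1 without both dim arrays (31.9%), and 8 without B73 replicate 2 (49.0%). For Mo17xB73 against B73 it was 4 without B73 replicate 2 or Mo17xB73 replicate 1 (35.0% and 36.6%). The call of the meg6-symbol probe set there was lost when any of 8 single arrays was left out, with adjusted p from 0.0512 to 0.135.

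If each genome copy gave the same output as in its inbred parent, a hybrid would stand at the parental mean with the mother counted 2 times and the father once. For bap1-b (_s_at) that mean was 1703 in B73xMo17, where 695.5 was observed, and 2645 in Mo17xB73, where 3376 was observed. The hybrids thus differed 4.85-fold, where the weighting gives 1.55-fold. The second bap1-b probe set differed 6.49-fold against 1.69-fold. For esr1 these values were 3.95-fold and 1.67-fold, and for ESR1c1 (S1_at) 4.0-fold and 1.55-fold. The meg2/MEG6 probe sets differed 3.03-fold and 3.44-fold, against 1.33-fold and 1.37-fold. The meg6-symbol probe set differed 1.02-fold, where the weighting gives 0.927-fold. bap-3a is left out here, since its B73 level is the floor itself. In the fit of 4 genotype means 0 of the 9 departures from the weighted mean were called by limma's moderated variance in either hybrid, with 3 at an unadjusted p under 0.05 in B73xMo17 and 0 in Mo17xB73. Across the array 4.19% of probe sets were called for B73xMo17 and 0.925% for Mo17xB73.

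With crossing date as a block, 5 of the 9 were called below the weighted mean in B73xMo17, where 18.1% of all tested were called, and 0 in Mo17xB73, where 3.94% were. bap1-b fell by 1.29 (adjusted p 0.00438) and by 1.63 (adjusted p 0.000613) on the log2 scale by its 2 probe sets. bap-3a fell by 1.98 (adjusted p 0.0102) with the floor standing in for all 3 B73 arrays and 1 B73xMo17 array, so that its size is not measured. Also called were the ESR1c1 probe set S1_a_at, which fell by 1.34 (adjusted p 0.0378) with 2 B73 arrays and 1 B73xMo17 array at the floor, and the meg2/MEG6 probe set _x_at, which fell by 0.82 (adjusted p 0.0285). The companion probe sets of these genes were not called, ESR1c1 S1_at at -0.64 ± 0.27 (adjusted p 0.122) and meg2/MEG6 _a_at at -0.70 ± 0.25 (adjusted p 0.0710). esr1 departed by -0.55 ± 0.49 (adjusted p 0.473), and the 2 hybrids' departures were not tested against each other. Without the 2 dim arrays, B73xMo17 is its date 3 array alone, set against parental means over all 3 dates. In that fit, without a block, bap1-b (_s_at) departed by -0.57 and bap-3a by -1.86. Against its parents on date 3 only, bap1-b (_s_at) read 0.536 of the weighted mean in B73xMo17. On the deposited scale, where the dim arrays stay dim, 4 of the 9 and 23.7% of all tested were called.

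The departures varied between crossing dates. For bap1-b (_s_at) B73xMo17 read 0.353, 0.340 and 0.536 of its weighted mean on dates 1, 2 and 3, below it each time. Mo17xB73 read 1.14, 1.54 and 1.16 of its own. For esr1 these ratios were 0.292, 1.06 and 0.853 in B73xMo17 and 1.51, 2.65 and 0.985 in Mo17xB73, so that the dates did not share a direction. On the linear scale, the difference between the 2 hybrids can be expressed as a share of that between the 2 inbreds at the same date. It is 1 where the hybrids differ as much as the inbreds and 0.333 where both hybrids stand at their weighted mean. This share was 0.995 ± 0.25 for bap1-b by _s_at and 0.867 ± 0.21 by _x_at (SD, n = 3 dates). None is given for bap-3a, since all 3 of its B73 arrays were raised to the floor. For meg2/MEG6 the share was 1.39 ± 0.47 by _a_at and 1.35 ± 0.52 by _x_at. It was 1.41 ± 0.83 for ESR1c1 by S1_at, 1.05 ± 0.60 by S1_a_at, which has arrays raised to the floor, and 1.25 ± 0.77 for esr1. The meg6-symbol probe set, which was higher in B73, had a share of -0.096 ± 0.090. Over the 861 probe sets called at least 2-fold higher in Mo17 than in B73, the median share was 0.411, with quartiles at 0.240 and 0.625. On date 3 alone the shares were 0.706 for bap1-b (_s_at), 0.903 for meg2/MEG6 (_a_at), 0.505 for ESR1c1 (S1_at) and 0.378 for esr1, each the lowest of its 3 dates.

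**Figure D3:**
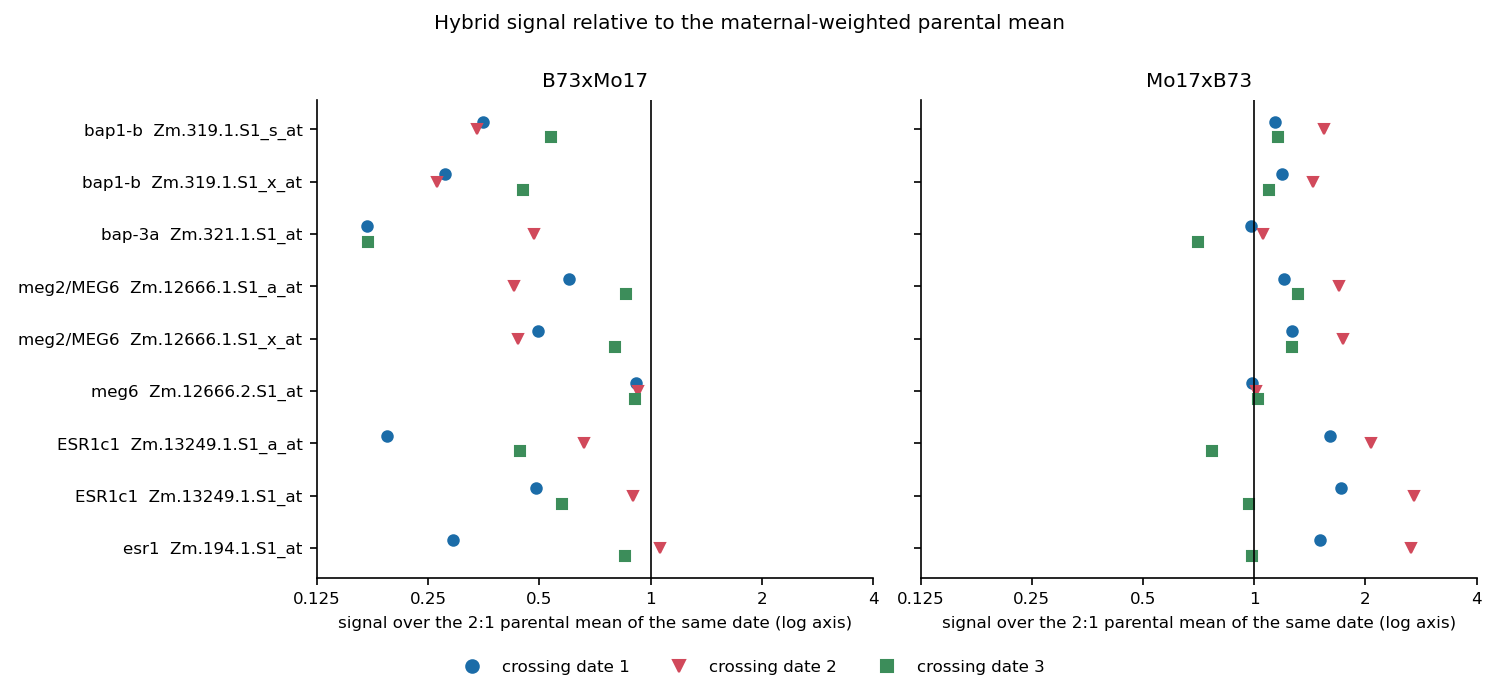
Signal of each hybrid divided by the 2:1 mother-to-father mean of the same crossing date (log axis, 1 at the vertical line), for the 9 tested member probe sets with 1 marker per date. bap1-b lies left of the line on all 3 dates in B73xMo17 (0.353, 0.340 and 0.536 by _s_at) and right of it in Mo17xB73, while esr1 and ESR1c1 scatter widely between dates. Values under the floor were raised to it. For bap-3a these are all 3 B73 arrays and 1 B73xMo17 array, and for ESR1c1 S1_a_at 2 B73 arrays and 1 B73xMo17 array.

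The second source of variation in these genes was the crossing date. With genotype in the model, date was called for 6 of the 9 probe sets by limma's moderated F test, where 18.0% of all tested were called. Both bap1-b probe sets were 4.25-fold and 4.40-fold higher on date 1 than on date 2 (adjusted p 0.000486 and 8.89e-05). Those of meg2/MEG6 were 3.02-fold and 3.98-fold higher (adjusted p 0.00345 and 0.000539), bap-3a 2.64-fold (adjusted p 0.0494) and ESR1c1 by S1_at 2.24-fold (adjusted p 0.0160). Date 3 resembled date 1 more than date 2, standing 3.01-fold above date 2 for bap1-b and 2.56-fold for meg2/MEG6 (_a_at). For 5 of the 9 the date 2 array was the lowest of the 3 in all 4 genotypes, as it was for 4.58% of all tested probe sets. ESR1c1 by S1_a_at, with 2 B73 arrays and 1 B73xMo17 array at the floor, was 1.52-fold higher on date 1 than on date 2 without a call (adjusted p 0.203). esr1 was 2.31-fold higher on date 1 than on date 2 without a call (adjusted p 0.148), and in B73 and B73xMo17 its lowest array was not that of date 2. The meg6-symbol probe set moved by 0.07 on the log2 scale between these dates (adjusted p 0.0781). The count of 6 became 4 without Mo17 replicate 2, where 11.8% of all tested were called. With both dim arrays left out bap-3a no longer passed (adjusted p 0.0794).

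The spread within a genotype was accordingly large. The SD of the log2 signal over the 3 arrays was 1.5 for bap1-b (_s_at) and 1.43 for esr1 in B73, where the median over tested probe sets was 0.136. In Mo17xB73 it was 0.753 for bap1-b, 0.412 for meg2/MEG6 (_a_at) and 0.439 for esr1, beside a median of 0.136. The meg6-symbol probe set had SDs of 0.038 to 0.11.

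Other genes of the transfer layer, from a list drawn from general knowledge, moved across dates in the direction of bap1-b. Beyond the members, 10 genes of the list were on the array and 7 were tested: BETL1, bap2, bap-1a, the cell wall invertase gene INCW2, betl3, betl4 and bap-3b. The embryo surrounding region list had 2 tested genes of 3, both of them members. All 7 transfer layer genes were called for date, with differences of date 2 from date 1 between -3.57 for INCW2 and -1.90 for betl3 and a median of -2.33. BETL1, which encodes a small cysteine-rich protein of the transfer cells, read 4818, 667.0 and 2003 in B73 and 5081, 1355 and 4420 in Mo17. The date 2 array was the lowest in each inbred, and Mo17 read above B73 at each date. In bulk tissue, fewer transfer cells in a sample and less of these transcripts per cell cannot be told apart.

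Lists for other tissues that a kernel sample can hold were followed across dates too. Called for date were 1 of 7 tested aleurone genes (vpp1, a proton pump, 0.25 higher on date 2 than date 1), 2 of 19 starchy endosperm genes (the zein gene z1C2, at -1.83, and the regulator gene o2, 0.14 higher), 1 of 4 embryo genes (the oleosin gene ole1, 0.28 higher) and 0 of 1 green tissue gene (adjusted p 0.366), where 18.0% of all tested were called. Other storage protein genes of the starchy list were lower on date 2 than date 1 without a call, such as z1D_2 (-1.59, adjusted p 0.0534) and z1C1_20 (-1.23, adjusted p 0.0549). The summed starchy list was lowest on date 2 in 3 of 4 genotypes, as were the members bap1-b and meg2/MEG6 in all 4. It read 168144, 156562 and 171526 in B73, 94686, 77303 and 95239 in Mo17, 128173, 94964 and 124920 in Mo17xB73, and 179970, 180438 and 164201 in B73xMo17. The summed signal of the 10 transfer layer genes was 1608 to 6153 on the 4 date 2 arrays and 4850 to 20184 on the other 8. The summed embryo list was the highest of the 3 dates on date 2 in all 4 genotypes, at 4354 to 4771 against 3085 to 4169 on the other dates, and so was the summed aleurone list, at 7733 to 10906 against 7452 to 9974. Of the embryo markers, glb2 and EMB5 stood near or under the floor, as did c1 of the aleurone list and Cab-m7 and pep1 of the green tissue list. The 3′ to 5′ ratio of the GAPDH control was also highest on date 2 in each genotype, at 1.36 to 1.43 against 1.16 to 1.38. That of the actin control was highest on date 2 except in B73xMo17, at 0.683 against 1.01 on date 3. The cyclophilin ratio was highest on date 2 only in Mo17, at 1.18, and lowest on date 2 in both hybrids, at 1.15 in B73xMo17 and 1.09 in Mo17xB73. The part of tissue makeup or RNA quality in the members' date difference was not tested.

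**Figure D4:**
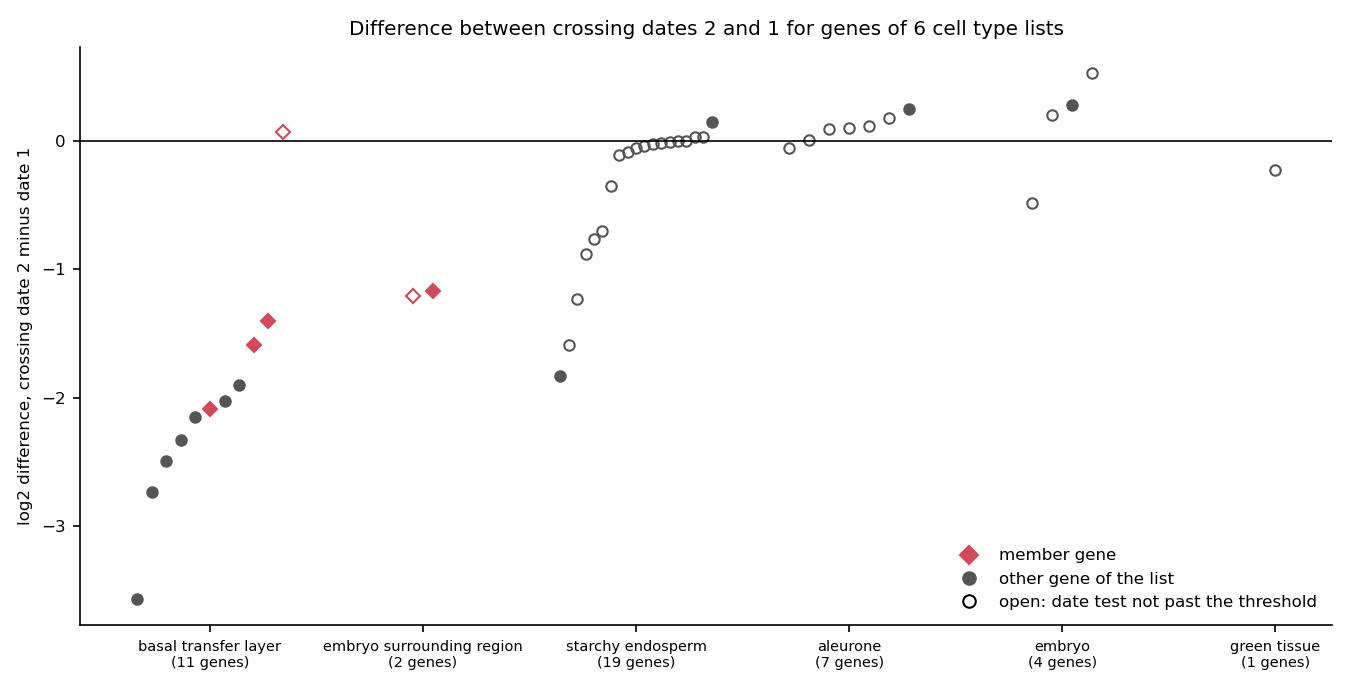
Log2 difference of crossing date 2 from date 1, with genotype in the model, for the tested genes of 6 cell type lists (1 probe set a gene, the brightest); diamonds are members, circles other genes, and open markers did not pass the date test. All transfer layer genes but the meg6-symbol probe set lie between -3.57 and -1.40, while the aleurone genes lie between -0.06 and 0.25.

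Of the genotype differences of the other transfer layer genes, most ran in the direction of bap1-b, and bap-3b was the exception between the inbreds (0.26 ± 0.95). Between the inbreds 0 of the 7 were called by limma (1 at an unadjusted p under 0.05; median -0.97), and between the reciprocal hybrids 0 of the 7 (0 at an unadjusted p under 0.05; median -1.43). With crossing date as a block, 5 of the 7 were lower in B73 than Mo17 and all 7 lower in B73xMo17 than Mo17xB73. Of all tested probe sets 63.4% and 44.5% were called in these comparisons, in either direction. Among those calls 3332 of 6785 were lower in B73, and 2412 of 4770 were lower in B73xMo17. INCW2 had geometric means of 69.6 in B73, 111.6 in B73xMo17, 511.4 in Mo17 and 660.4 in Mo17xB73. The summed list read 1608, 4850 and 11782 on the B73 arrays, lowest first, and 4246, 13743 and 16922 on those of Mo17, which overlap. It read 1755, 7519 and 7929 for B73xMo17 and 6153, 15039 and 20184 for Mo17xB73.

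Markers of other cell types differed between the inbreds too. Of 19 starchy endosperm genes 16 were higher and 1 lower in B73, with a median of 1.11, and of 7 aleurone genes 5 were lower, with a median of -0.55, where 27.5% of all tested were called higher and 26.1% lower. The summed starchy list was 156562 to 171526 in B73 and 77303 to 95239 in Mo17, and the summed aleurone list 7471 to 7733 and 8877 to 10381. Between the reciprocal hybrids 11 of the 19 starchy genes were higher and 1 lower in B73xMo17, and 3 of the 7 aleurone genes were lower. Of all tested probe sets 31.2% were called there, and 15.9% were called lower. The part of tissue makeup in the members' genotype differences was not tested.

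Across the 12 arrays the members, each by its brightest tested probe set, correlated with one another at 0.742 to 0.976. This is a description over arrays that share genotype and date, and the meg6-symbol probe set was not included. Other transfer layer genes were the most alike only for bap1-b and meg2/MEG6. Among 800 tested probe sets with a usable gene name, the 3 most like bap1-b (_s_at) were INCW2 (r = 0.969), bap2 (0.969) and bap-1a (0.960). The same 3 genes led for meg2/MEG6 (0.971 for bap2, 0.966 for bap-1a and 0.966 for INCW2). bap1-b and meg2/MEG6 themselves correlated at 0.976, and at 0.972 after each genotype's mean was removed. The nearest to ESR1c1 were gst31 (0.956), a glutathione S-transferase gene, cap1 (0.911) and INCW2 (0.905). esr1 was followed most closely by pdi3 (0.922), a protein disulfide isomerase gene, gst31 (0.901) and GNAT19 (0.886), and bap-3a by sat2 (0.942), hdr10 (0.942) and pdi4 (0.919). esr1 and ESR1c1 correlated at 0.957, and at 0.875 with genotype means removed. For bap-3a, with 4 arrays at the floor, the correlation with bap1-b was 0.852, and 0.611 with genotype means removed.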

How the data were processed

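The values are intensity on a linear scale, deposited by the authors as MAS5 signal for each probe set and array, per the submitters' processing notes. Its software version, scaling target and detection calls were not given. Total RNA was biotin-labelled in 1 cycle, per the labels' protocols. The labels give the pool as 6 endosperms from each of 6 ears (36) in one place and 5 from each ear in another. The table held 17734 probe sets, and 113 controls were left out. Each array was scaled to equal medians over the brighter probe sets, values were floored at the pooled 20th percentile (14.8) and taken to log2, and probe sets with a mean above the pooled 40th percentile (71.8) were tested. limma 3.58.1 in R 4.3.3 fitted 4 genotype means (8 residual degrees of freedom) with a trended empirical Bayes prior. All tests are two-sided, and calls are at a Benjamini-Hochberg adjusted p of 0.05. Departures from the parental mean, weighted 2 to 1, used delta-method errors. The fits were tested on simulated data.

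The labels tie replicate numbers to crossing dates. After genotype means were removed, arrays of the same date had mean correlations of 0.389, 0.375 and 0.424 (each pair above 0.1), so the numbers pair the arrays. The mean of -0.199 between different dates adds nothing to this, since removing each genotype's mean ties it to the same-date values. The block left 6 residual degrees of freedom. Nothing beyond the separate crossing dates describes the independence of replicates.

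Probe sets were named from the platform annotation and, by gene identifier, from a RefSeq gene table (Zm-B73-REFERENCE-NAM-5.0), which held 1377 of the 1452 probe sets annotated with 1 gene. They are called here by the last part of their array names. No coordinates or sequences are printed, since the files name no genome build and no sequence table was used here. The members and lists were chosen with earlier results of these data known. All probe sets of the members are named. Of the lists, up to 3 called genes with the smallest adjusted p and, for each member's brightest probe set, the 3 most correlated named genes could be named, and list genes beyond that rule were named after their values were seen. Figures were drawn with matplotlib 3.10.9. Alternatives covered scaling, floor, filter, prior, block, parental mean and arrays used; scaling on the median of all probe sets and leaving out crossing date 2 were added after seeing the data.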

Additional observations from a re-analysis of the deposited data

How the results depend on the processing

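In the fit without a date block, the calls of bap1-b and esr1 between the hybrids rested on few arrays. Signal near the floor limits bap-3a and ESR1c1 in B73 and B73xMo17.

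Calls over all probe sets moved by more than 1.5 times as follows. On the deposited scale they numbered 765 for Mo17xB73 against Mo17, 2827 for Mo17xB73 against B73, 2539 and 29 for the departures of B73xMo17 and Mo17xB73 from the weighted parental mean, and 699 for crossing date; 1 member was called for B73xMo17 against B73 and 4 for the B73xMo17 departure. With crossing date as a replicate block they were 2180 and 2023 against the mothers and 1936 and 422 for the departures, with 1 member for B73xMo17 against B73 and 5 for the B73xMo17 departure; the block changed member calls otherwise only for the meg2/MEG6 probe sets. With no filter they were 244 for the B73xMo17 departure and 916 for date, with 2 members between the hybrids and 3 for B73xMo17 against Mo17. Without the 2 dim arrays they were 1619 between the hybrids, 379 for B73xMo17 against B73, 3412 for B73xMo17 against Mo17, 16 and 52 for the departures and 916 for date, with 0 members between the hybrids and 1 for B73xMo17 against Mo17. Without crossing date 2 they were 1489 between the hybrids, 430 and 718 against the mothers, 2779 for Mo17xB73 against B73, and 121 and 19 for the departures, with 1 member for the B73xMo17 departure. With the weighted mean of log2 values the departures numbered 880 and 536, and quantile normalization gave 152 for Mo17xB73. The causes were not tested beyond the fewer arrays or the other probe sets used.

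Leaving out 1 array gave 2202 to 3335 calls between the hybrids, 697 to 1072 for B73xMo17 against B73, 122 to 566 and 27 to 87 for the departures, and 1107 to 1883 for date. Members called ran from 2 to 8 between the hybrids, 3 to 8 for B73xMo17 against Mo17, 4 to 8 for Mo17xB73 against B73 and 0 to 1 for the B73xMo17 departure.

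Differences that were not called and lay near 0 changed sign. For B73xMo17 minus B73, leaving out 1 array gave -0.88 to 0.62 and -0.58 to 0.86 for bap1-b (_s_at, then _x_at) and -0.81 to 0.60 and -0.91 to 0.64 for meg2/MEG6 (_a, then _x). The second bap1-b probe set read -0.13 on the deposited scale and -0.018 after quantile normalization, and without the dim arrays the first read 0.60 and the meg2/MEG6 pair 0.63 and 0.68. For Mo17xB73 minus Mo17, leaving out 1 array gave -0.63 to 0.34 and -0.84 to 0.35 for bap1-b, -1.51 to 0.018 for bap-3a, -0.15 to 0.41 and -0.33 to 0.53 for meg2/MEG6, -0.59 to 0.41 and -0.28 to 0.75 for ESR1c1 and -0.41 to 0.65 for esr1, and without date 2 ESR1c1 (S1_at) read -0.067 and esr1 -0.17. The meg6-symbol probe set read -0.066 to 0.0095 between the hybrids with 1 array left out and -0.25 for B73xMo17 minus Mo17 on the deposited scale. For the B73xMo17 departure, meg2/MEG6 (_a) ran from -1.08 to 0.027, the pair read 0.056 and 0.0025 without the dim arrays, and esr1 read 0.40 there and 0.10 with log2 means. For the Mo17xB73 departure the ranges were -0.15 to 0.78 and -0.31 to 0.85 for bap1-b, -0.95 to 0.55 for bap-3a (0.59 with log2 means), -0.061 to 0.88 for ESR1c1 (S1_a_at) and -0.030 to 0.043 for the meg6-symbol probe set, which read -0.040 on the deposited scale and -0.069 with medians of all probe sets.

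On the deposited scale the median over all tested probe sets shifted by -0.14 between the inbreds, -0.23 between the hybrids, and -0.20, -0.12 and -0.34 for B73xMo17 against B73, Mo17xB73 against Mo17 and B73xMo17 against Mo17. The share of calls that were higher moved there from 51.3% to 34.9%, 49.1% to 12.4%, 61.3% to 28.1% and, for the last, 50.9% to 17%. Scaling on the median of all probe sets moved it from 71.6% to 52.9% for Mo17xB73 against Mo17 and from 49.4% to 37.8% for Mo17xB73 against B73.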
